A study of Rattus norvegicus with 16 samples.

Results

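The cytosolic ribosome is built from ribosomal RNA and a set of ribosomal proteins (the Rpl genes for the large subunit, the Rps genes for the small one), and the eukaryotic initiation factors (the Eif genes) bring the initiator tRNA, the mRNA and both subunits together at the start codon. Genes of both kinds were followed on cDNA microarrays of rat neural stem/progenitor cells. A gene was taken where the annotation of the chip gave a spotted feature exactly 1 symbol of the pattern Rpl or Rps with a number, Rplp0, Rplp1, Rplp2, Rpsa, or Eif with a number. This gave 63 of the 12559 units tested (a unit being a gene, or a spot without a single gene name): 27 ribosomal proteins on 62 features and 36 initiation factors on 70 features. Of the ribosomal protein genes, 20 belonged to the large subunit and 7 to the small one. All 63 genes had values on enough arrays to be tested.

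In mammals the mRNAs of ribosomal proteins begin with a run of pyrimidines, and their translation and stability follow growth factor signalling through mTOR. The initiation factors work in complexes: eIF2 carries the initiator tRNA and is recharged by eIF2B, eIF3 holds the small subunit, eIF4F binds the mRNA cap and unwinds the leader, and eIF5 and eIF5B complete start codon recognition and subunit joining. Proliferating progenitors need both sets of proteins to double their mass before each division, and FGF-2 is the mitogen that keeps such cultures dividing.

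The cells came from the neocortex of Sprague-Dawley rat embryos at day 14.5 and grew as monolayers with 10 ng/ml FGF-2. Total RNA (40 µg) of 4 groups was hybridised on mouse cDNA chips, each time against RNA of FGF-2 cultures on the other dye, with 4 arrays per group and the dyes swapped on 2 of them. The groups were cells with 10 ng/ml PDGF-AA for 6 d, cells without growth factor for 6 d, cells with PDGF-AA for 12 h and cells without growth factor for 12 h; their common reference was cells kept in FGF-2. The labels do not say whether FGF-2 was still present beside PDGF-AA.

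Every value below is a log2 ratio of a sample over the FGF-2 reference, centred on the median of its array, so that 0 means no difference from FGF-2 relative to the median spot; a fitted value is followed by ± its SE (limma, 4 arrays per group). The labels give neither log base nor direction, so base 2 was assumed, and the direction was read from DNA replication genes, which dividing FGF-2 cultures should express most. All 15 measured DNA replication genes were below 0 in each of the 4 groups, and 1, 13, 9 and 15 of them passed the test at PDGF-AA 6 d, no factor 6 d, PDGF-AA 12 h and no factor 12 h. Only ratios were used, so no gene's level is set against another's. Within groups the arrays differed. At PDGF-AA 6 d the mean of the replication genes was 0.39 on replicate 1, -0.22 and -0.30 on replicates 2 and 3 and -1.17 on replicate 4. Array pairs of 1 group and dye correlated at r = 0.29 to 0.73 over all features, and pairs of 1 group and opposite dyes at r = -0.45 to 0.45, the lowest being PDGF-AA 12 h replicates 3 and 4. The FGF-2 RNA counted as 1 control sample whose own spread is left out, and the arrays came from at least 2 RNA preparations that the labels do not assign, so the p-values rest on differences among hybridisations that may be purely technical. In such bulk RNA, fewer cells of a type and less RNA per cell cannot be told apart.

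The main result concerned ribosomal proteins after 6 d without growth factor. There, 17 of 27 ribosomal protein genes fell and 0 rose (limma, adjusted p under 0.05 with Benjamini-Hochberg over all 12559 units), where 6.73% of all units were called lower. Among initiation factors 3 of 36 rose and 4 fell, where 6.99% of all units were called higher, 6.73% lower and 13.7% in either direction, so these counts are near the background. Of the 6241 named genes, 10.2% were called higher and 8% lower there. These shares are no like-for-like background, since the families were measured with less spread. The median SE of a group value was 0.0883 over ribosomal proteins, 0.0964 over initiation factors and 0.121 over all units (limma). A change of equal size thus passed more easily in the families than in a typical unit. At 12 h without factor 3 of 27 ribosomal protein genes fell against 6.48% of units called lower, and 2 initiation factors rose and 2 fell against 5.21% called higher and 11.7% in either direction. The initiation factor counts are near the background there too. With PDGF-AA no gene of either family passed, at 6 d (3.22% of units called, 1.9% higher and 1.32% lower) or at 12 h (3.01% called, 0.661% higher and 2.35% lower). At an unadjusted p under 0.05 (limma) there were 7 ribosomal proteins and 9 initiation factors at 6 d, and 7 and 4 at 12 h. Shares of all units at an unadjusted p are not given here, so such counts show no excess over the background.

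Most ribosomal protein genes lay below the array median in all 4 groups. Its median log2 ratio was -0.17 at PDGF-AA 6 d, -0.32 at no factor 6 d, -0.10 at PDGF-AA 12 h and -0.15 at no factor 12 h, where the median of all units was within 0.01 of 0 in each group. Below 0 lay 25, 27, 21 and 24 of the 27 genes in that order of groups. Initiation factors had medians of -0.029, -0.12, 0.029 and 0.019, with 21, 27, 13 and 18 of 36 genes below 0, where 49.1% to 50.3% of all units were.

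Per array, the mean of the 27 ribosomal protein genes was -0.109, -0.0345, -0.189 and -0.264 at PDGF-AA 6 d and -0.210, -0.358, -0.549 and -0.250 at no factor 6 d (replicates 1 to 4). At PDGF-AA 12 h it was 0.0527, -0.173, -0.316 and 0.0571, and at no factor 12 h -0.287, 0.00844, -0.0679 and -0.345. All 8 arrays of 6 d were below 0, and 5 of the 8 arrays of 12 h. As means these were -0.149 ± 0.0991 at PDGF-AA 6 d, -0.342 ± 0.152 at no factor 6 d, -0.0949 ± 0.182 at PDGF-AA 12 h and -0.173 ± 0.1697 at no factor 12 h (SD, n = 4 arrays each). With the sample in Cy5 they were -0.0717, -0.230, 0.0549 and -0.0298 in that order, and in Cy3 -0.226, -0.454, -0.245 and -0.316. At 12 h the low values thus lay mainly on the Cy3 arrays. The group mean of the 36 initiation factors stayed closer to 0 than that of the ribosomal proteins, at -0.00761 ± 0.0455, -0.0708 ± 0.0232, 0.0434 ± 0.0237 and 0.0168 ± 0.0574 in the same order of groups.

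**Figure D1:**
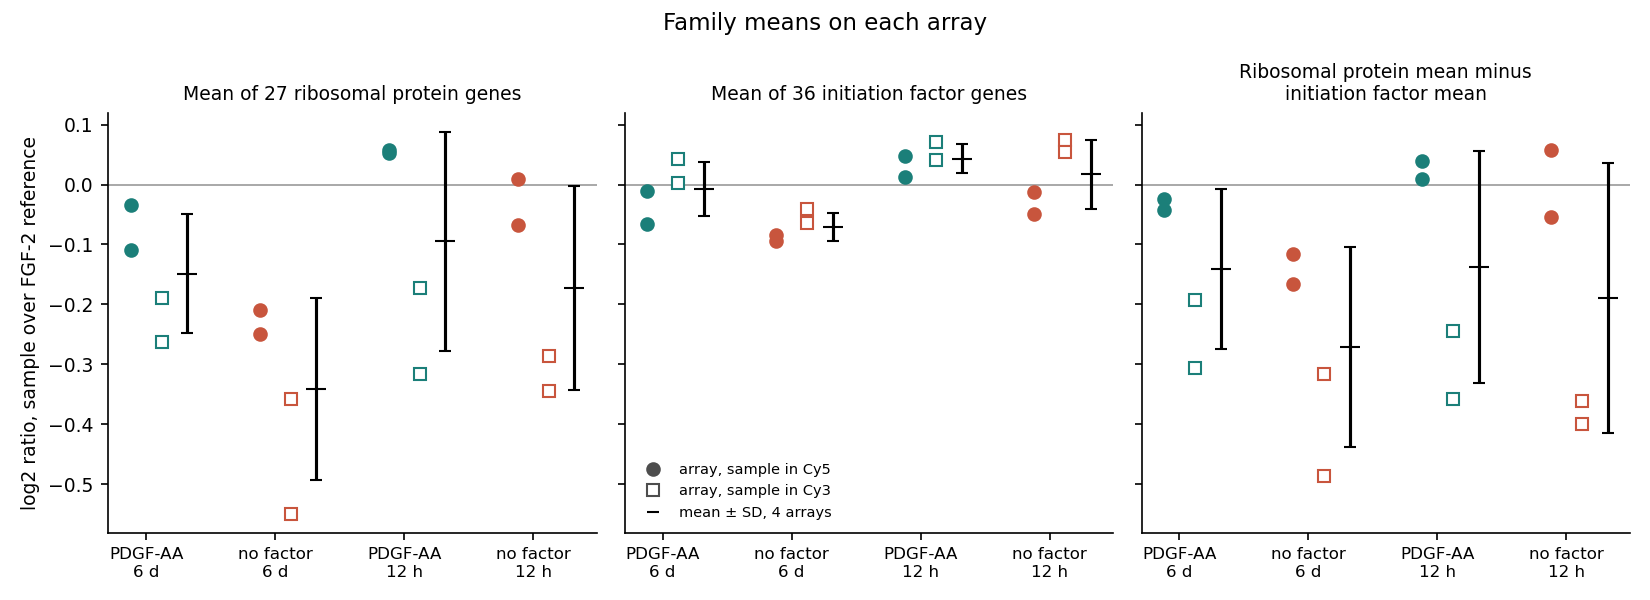
Means over 27 ribosomal protein genes (left), over 36 initiation factor genes (middle) and their difference (right) on each of the 16 arrays, as log2 ratio over the FGF-2 reference; filled circles have the sample in Cy5, open squares in Cy3, and bars are mean ± SD of 4 arrays. The difference lies below 0 on all 8 arrays of 6 d, and at 12 h mainly on the arrays with the sample in Cy3.

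The ribosomal protein mean minus the initiation factor mean was -0.141 ± 0.134 at PDGF-AA 6 d, -0.271 ± 0.167 at no factor 6 d, -0.138 ± 0.194 at PDGF-AA 12 h and -0.190 ± 0.225 at no factor 12 h (SD, n = 4 each). No p is given, since the families were chosen with results of these data known. The difference moved with the dye. On arrays with the sample in Cy5 it averaged -0.0333, -0.141, 0.0242 and 0.00101 in that order of groups, and on arrays with the sample in Cy3 -0.250, -0.401, -0.301 and -0.380. At 6 d it kept its sign in both dyes, and at 12 h it did not. The fitted dye effect (Cy5 minus Cy3) had a median of 0.208 over the ribosomal proteins and -0.103 over the initiation factors, against -0.00803 over all units. The dye term itself passed (limma, adjusted p under 0.05) for 13 of 27 ribosomal proteins, 20 of 36 initiation factors and 39.1% of all units. Each group holds both dyes equally, so the group values below balance a dye effect that is the same in all groups. Whether it was the same was not tested.

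Pyrimidine runs near the start site are the sequence feature that sets ribosomal protein genes apart in mammals, so the windows around the annotated starts are shown for genes that the results turn on. The first 6 are the ribosomal proteins with the largest fall at 6 d without factor among those found in the promoter table, and the last 6 are the initiation factors called there that were found. Each window has 15 bases before the start and 15 from it on, 5′ to 3′ on the gene's strand in the rat genome (RefSeq, GRCr8), and capitals mark runs of 6 or more C or T.
Rps27l (chr8:76443643-76443672, plus strand): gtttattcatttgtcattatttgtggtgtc
Rpl9 (chr14:43247575-43247604, plus strand): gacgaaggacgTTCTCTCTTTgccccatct
Rpl28 (chr1:78083518-78083547, minus strand): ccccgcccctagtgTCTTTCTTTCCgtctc
Rps9 (chr1:74430423-74430452, minus strand): tccggcggccacgTTTCTCTTTgtcacggg
Rpl21 (chr12:13386139-13386168, minus strand): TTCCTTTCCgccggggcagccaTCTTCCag
Rpl4 (chr8:73566462-73566491, plus strand): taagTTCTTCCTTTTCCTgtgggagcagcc
Eif4a2 (chr11:91275309-91275338, minus strand): gTCTTTTCagtcgggcgctgagtgggtttt
Eif1b (chr8:129081143-129081172, plus strand): gccattttgtgcgagaagccgcagcgccgc
Eif5b (chr9:47718691-47718720, plus strand): ccatatgtgccctgtcccagtgcgcgggtc
Eif3i (chr5:147226896-147226925, minus strand): cagTCTTCTTCCggtcctactcacattgcc
Eif5 (chr6:136410318-136410347, plus strand): cccggggccgagggtagcttgagcgcggcg
Eif2s2 (chr3:163855556-163855585, minus strand): tgctgtgagaggtatcggtaggagctacgc
Of these, Rpl9, Rpl28, Rps9, Rpl21 and Rpl4 held such a run, as did Eif3i and Eif4a2, while Rps27l, Eif1b, Eif5b, Eif5 and Eif2s2 did not. Rps20, Rps3a1 and Rpl15 are named only.

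Promoters of 54 of the 63 genes were found in the table. A run of at least 6 pyrimidines on the gene's strand lay in the window of 18 of 23 ribosomal protein genes (78.3%), of 11 of 31 initiation factor genes (35.5%) and of 28.3% of all 27457 promoters of the table. A C at the annotated start followed by at least 4 pyrimidines was found in 7 of 23 (30.4%), 1 of 31 (3.23%) and 2.63%. Among ribosomal protein genes the run was present in 11 of 14 that fell at 6 d without factor and in 7 of 9 that were not called. A match is a string of letters at an annotated start, and neither a match nor its absence says what binds there or where these cells start the transcript.

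Rps27l, a paralog of the small subunit protein Rps27 and in human cells a target gene of p53, had the lowest mean of the family in each of the 4 groups. Its log2 ratios were 0.039, -0.16, -0.57 and -0.9997 at PDGF-AA 6 d, -0.80, -0.78, -1.36 and -0.65 at no factor 6 d, 0.080, -0.38, -0.79 and -0.083 at PDGF-AA 12 h and -0.97, -0.66, -0.50 and -0.70 at no factor 12 h. All 8 arrays without factor lay at -0.50 or below, while the arrays with PDGF-AA reached from -0.9997 to 0.080. It fell 1.86-fold at 6 d without factor (-0.90 ± 0.12, adjusted p = 7.114e-05, limma) and 1.63-fold at 12 h without factor (-0.71 ± 0.12, adjusted p = 0.000556). With PDGF-AA it had -0.42 at 6 d (adjusted p = 0.0579) and -0.29 at 12 h (adjusted p = 0.233). Without PDGF-AA 6 d replicate 1, the array with the replication genes above 0, the 6 d value was -0.50 (adjusted p = 0.0474), and over the 27 alternatives, of which 24 left it uncalled, it was -0.79 to -0.30 (adjusted p = 0.0229 to 0.351). The -0.79 came from a fit that kept only replicate 4 of PDGF-AA 6 d. The other measured paralogs, Rpl39l and Rpl7l1, passed in no group. Rpl39l, a paralog of Rpl39 known for its high expression in mouse testis, had -0.19 at PDGF-AA 6 d, -0.26 at no factor 6 d, -0.025 at PDGF-AA 12 h and -0.15 at no factor 12 h. Rpl7l1 had -0.065 at PDGF-AA 6 d, -0.10 at no factor 6 d, 0.061 at PDGF-AA 12 h and -0.13 at no factor 12 h.

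Small subunit genes fell in 4 of 7 cases at 6 d without factor and in 2 of 7 at 12 h without factor. Rps20 had -0.11, -0.044, -0.16 and -0.24 at PDGF-AA 6 d, -0.43, -0.44, -0.67 and -0.53 at no factor 6 d, -0.39, -0.081, -0.079 and -0.29 at PDGF-AA 12 h and -0.37, -0.28, -0.40 and -0.12 at no factor 12 h. The arrays of PDGF-AA 6 d and of no factor 6 d did not overlap for it, and all 16 arrays were below 0. It fell 1.43-fold at 6 d without factor (-0.52 ± 0.084, adjusted p = 0.00048) and 1.23-fold at 12 h without factor (-0.29, adjusted p = 0.03), and had -0.14 and -0.21 with PDGF-AA for 6 d and 12 h, neither past the threshold. Rps9 had -0.35, -0.10, -0.43 and -0.31 at PDGF-AA 6 d, -0.22, -0.63, -0.67 and -0.29 at no factor 6 d, 0.40, -0.18, -0.26 and 0.30 at PDGF-AA 12 h and 0.094, 0.29, 0.083 and -0.19 at no factor 12 h. All 8 arrays of 6 d were below 0, against 3 of the 8 arrays of 12 h. It fell at 6 d without factor (-0.45 ± 0.088, adjusted p = 0.00198) and had -0.30 with PDGF-AA at 6 d (adjusted p = 0.0854). Rps3a1 fell at 6 d without factor (-0.42, adjusted p = 0.00176), with 4 of 4 arrays between -0.57 and -0.22. Rps21, Rps2 and Rps13 did not pass anywhere, with -0.30, -0.27 and -0.23 at 6 d without factor.

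Large subunit genes fell in 13 of 20 cases at 6 d without factor, and Rpl4 alone fell at 12 h without factor. Rpl4, a protein with a long loop in the peptide exit tunnel, had 0.034, -0.054, -0.060 and -0.41 at PDGF-AA 6 d, -0.35, -0.54, -0.47 and -0.21 at no factor 6 d, -0.17, -0.32, -0.28 and -0.062 at PDGF-AA 12 h and -0.38, -0.28, -0.17 and -0.47 at no factor 12 h. Its arrays without factor were all below 0 and overlapped those with PDGF-AA at both times. It fell at 6 d (-0.39 ± 0.077, adjusted p = 0.00202) and at 12 h (-0.32 ± 0.077, adjusted p = 0.00957) without factor. Rpl9 and Rpl28 had the largest falls of the large subunit at 6 d without factor and rested more on 1 dye than Rpl4 did. Rpl9 had -0.073, -1.02, -0.94 and -0.32 on those 4 arrays, and Rpl28 had -0.17, -0.79, -1.09 and -0.29, with the sample in Cy3 on replicates 2 and 3. All of these were below 0, and the Cy3 arrays were the lower pair for both genes. Rpl9 fell 1.504-fold (-0.59 ± 0.13, adjusted p = 0.00503) and Rpl28 1.501-fold (-0.59 ± 0.12, adjusted p = 0.00241), and in a fit without the dye term neither passed (adjusted p = 0.123 and 0.146).

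Rpl5 and Rpl11 join 5S ribosomal RNA in a particle that can bind the p53 regulator Mdm2. Rpl11 fell at 6 d without factor (-0.38 ± 0.072, adjusted p = 0.00174). Rpl5 had 0.45, -0.21, -0.076 and -0.11 at PDGF-AA 6 d, -0.14, -0.27, -0.32 and 0.39 at no factor 6 d, 0.55, -0.37, -0.56 and 0.78 at PDGF-AA 12 h and -0.64, 0.41, -0.58 and -0.90 at no factor 12 h. Its arrays spread widely in every group, and the gene had -0.43 at 12 h without factor (adjusted p = 0.105) and -0.083 at 6 d without factor (adjusted p = 0.883), neither past the threshold. The other large subunit genes that fell at 6 d without factor were Rpl21 (-0.43), Rpl15 (-0.39), Rpl24 (-0.37), Rpl10a (-0.36), Rpl35a (-0.34), Rpl37 (-0.32), Rpl3 (-0.32), Rpl29 (-0.28) and Rpl38 (-0.27), with adjusted p of 0.00501 to 0.0499 (limma). Rpl3 sits near the peptidyl transferase centre, Rpl29 is also known as a heparin-binding protein, and in the mouse Rpl38 is needed for translation of a subset of Hox mRNAs. Rpl13, Rplp1 of the acidic stalk, Rpl27 and Rpl34 did not pass, with -0.23, -0.18, -0.14 and -0.12.

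The count of ribosomal proteins that fell at 6 d without factor depended on the arrays and the fit. It was 11 without no factor 6 d replicate 3, 11 without replicate 4, with family medians of -0.33 and -0.30, 8 in a fit without the dye term and 10 in a fit of that group alone. Leaving out Rps27l, Rpl39l and Rpl7l1, 16 of 24 fell.

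**Figure D2:**
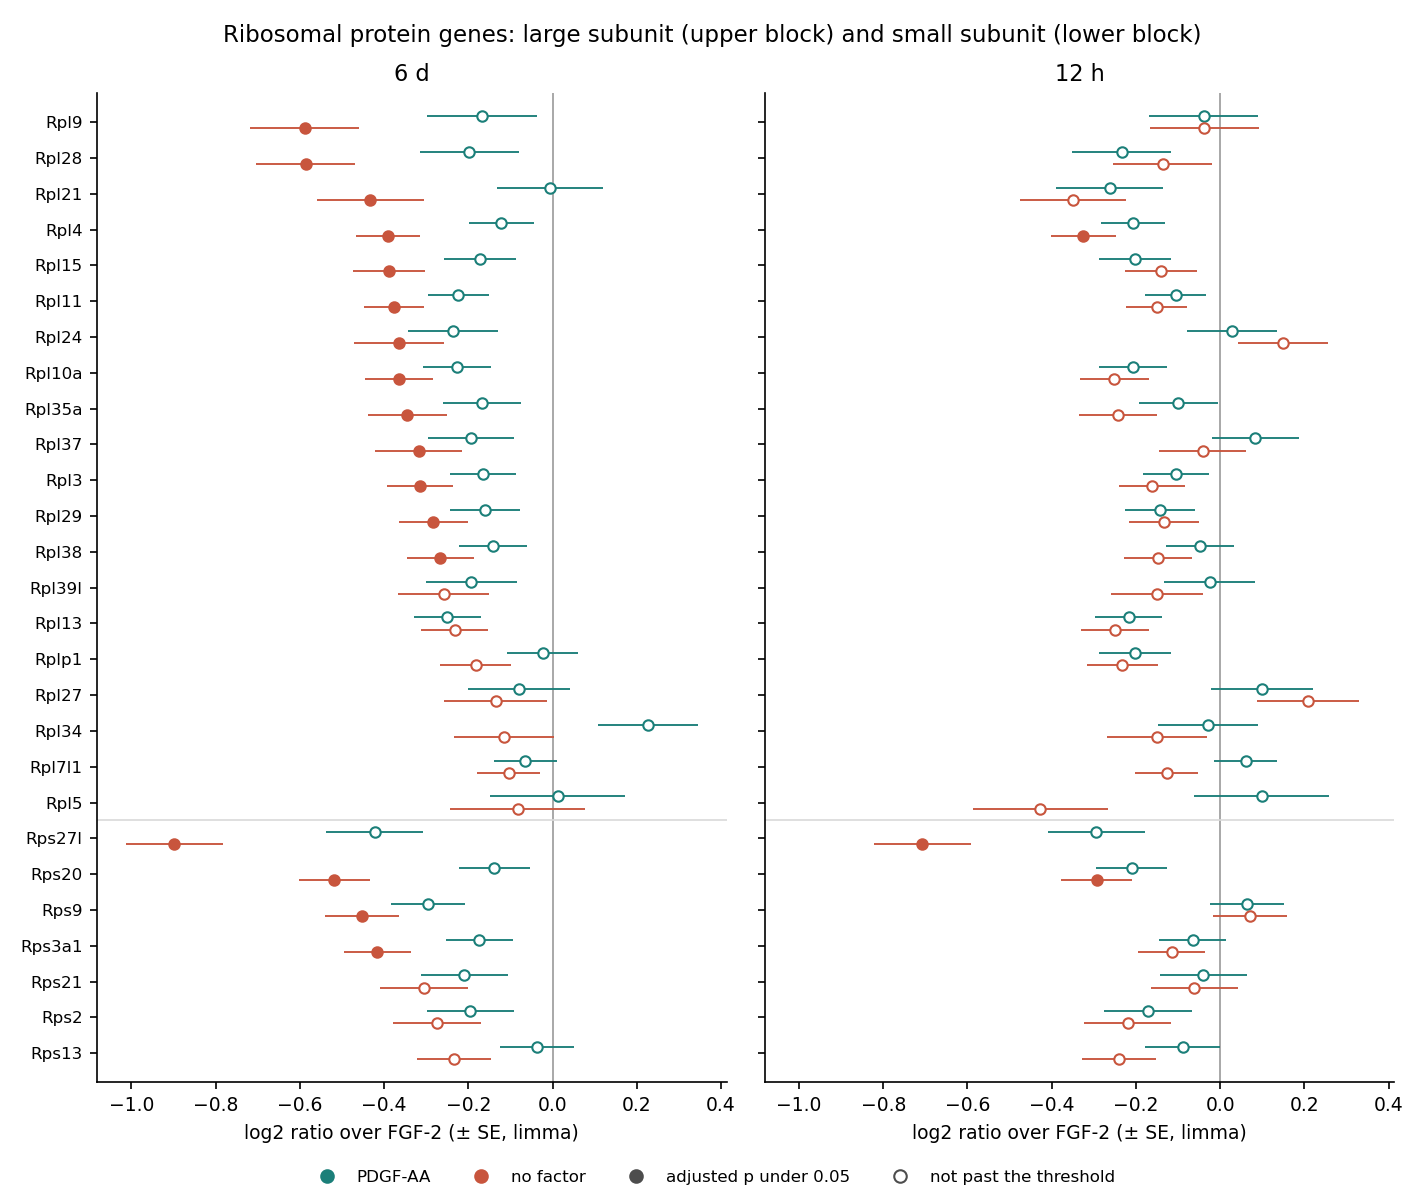
Log2 ratio over FGF-2 (± SE, limma) of the 27 ribosomal protein genes at 6 d (left) and 12 h (right), with PDGF-AA above no factor for each gene; filled points passed the adjusted threshold. All 27 points without factor at 6 d lie below 0, and 17 of them are filled, against 3 at 12 h and 0 with PDGF-AA at either time.

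Among the initiation factors, eIF3 subunits were called in both directions. Eif3i, a scaffold subunit with WD repeats, had -0.24, -0.18, 0.029 and -0.20 at PDGF-AA 6 d, -0.54, -0.40, -0.39 and -0.46 at no factor 6 d, -0.20, -0.12, -0.14 and -0.42 at PDGF-AA 12 h and -0.30, -0.42, -0.45 and -0.14 at no factor 12 h. The arrays of PDGF-AA 6 d and no factor 6 d did not overlap, and the arrays at 12 h did. It fell at 6 d (-0.45 ± 0.075, adjusted p = 0.000599) and at 12 h without factor (-0.33 ± 0.075, adjusted p = 0.0079), as 1.36-fold and 1.25-fold changes. Eif3h and Eif3f, which share a fold with proteasome lid proteins, rose at 12 h without factor (0.35 ± 0.097, adjusted p = 0.0244, and 0.32 ± 0.096, adjusted p = 0.0411). Eif3h had -0.28, -0.18, -0.24 and 0.33 at PDGF-AA 6 d, -0.088, -0.23, -0.013 and -0.37 at no factor 6 d, 0.18, 0.15, 0.52 and 0.25 at PDGF-AA 12 h and 0.48, 0.28, 0.20 and 0.44 at no factor 12 h. All 8 arrays of 12 h were above 0 and 7 of the 8 arrays of 6 d below it. Eif3e fell at 6 d without factor (-0.33 ± 0.10, adjusted p = 0.0429) and had 0.22 at 12 h without factor (adjusted p = 0.222). In all, 2 of 12 eIF3 subunits fell at 6 d without factor, and at 12 h without factor 2 rose and 1 fell. Of all units 6.73% were called lower at that 6 d, and 5.21% higher and 6.48% lower at that 12 h. Counts of so few genes were not tested against these shares.

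The other eIF3 subunits measured, Eif3a, Eif3b, Eif3c, Eif3d, Eif3j1, Eif3k, Eif3l and Eif3m, passed in no group. Their largest value in size at 6 d without factor was -0.30 (Eif3d, a subunit that can itself bind the cap), and Eif3k had -0.27 at PDGF-AA 6 d, -0.016 at no factor 6 d, 0.12 at PDGF-AA 12 h and 0.21 at no factor 12 h. The 12 subunits had a median of -0.17 at 6 d without factor, with 11 below 0, and of -0.029 at 12 h without factor, with 7 below 0. With PDGF-AA the median was -0.095 at 6 d and 0.10 at 12 h. Eif3h, Eif3f and Eif3e had the 3 highest values of the complex at 12 h under both treatments and lay below 0 at 6 d under both, on ratios that share the reference RNA.

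Of the eIF4F group, the helicase paralog Eif4a2 rose at 6 d and its paralog Eif4a1 fell at 12 h without factor. Eif4a2 had 0.046, 0.46, 0.026 and 0.68 at PDGF-AA 6 d, 0.78, 1.01, 0.64 and 0.15 at no factor 6 d, 0.12, 0.40, 0.60 and -0.13 at PDGF-AA 12 h and 0.60, -0.19, -0.050 and 0.42 at no factor 12 h. All 8 arrays of 6 d were above 0, and at 12 h the arrays with the sample in Cy5 were lower than those with it in Cy3. It rose 1.57-fold at 6 d without factor (0.65 ± 0.13, adjusted p = 0.00235), the largest change of any initiation factor in the 4 groups, and had 0.30 with PDGF-AA for 6 d (adjusted p = 0.263). Eif4a1 had 0.15, -0.20, 0.13 and -0.25 at PDGF-AA 6 d, -0.42, -0.25, -0.20 and -0.013 at no factor 6 d, -0.11, 0.073, 0.030 and -0.0043 at PDGF-AA 12 h and -0.18, -0.55, -0.37 and -0.16 at no factor 12 h. All 8 arrays without factor were below 0. It fell at 12 h without factor (-0.31 ± 0.095, adjusted p = 0.0408) and had -0.22 at 6 d without factor (adjusted p = 0.169). The helicase cofactor Eif4b had -0.16 at PDGF-AA 6 d, -0.22 at no factor 6 d, 0.11 at PDGF-AA 12 h and 0.21 at no factor 12 h. The cap-binding proteins Eif4e2, known as a repressor, and Eif4e3 had -0.28 and -0.17 at 6 d without factor, and the scaffolds Eif4g2 and Eif4g3 had -0.092 and 0.20. None of these 5 passed in any group, and nor did Eif4enif1, which carries eIF4E into the nucleus (-0.030).

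Of 4 factors of start site selection and subunit joining, Eif1b and Eif5b rose and Eif5 fell at 6 d without factor. Eif1b, a close paralog of the start codon fidelity factor Eif1, had -0.074, 0.046, 0.073 and 1.04 at PDGF-AA 6 d and 0.51, 0.79, 0.57 and 0.30 at no factor 6 d. A single array, replicate 4, carried the PDGF-AA mean, while all 4 arrays without factor were high. It rose 1.45-fold without factor (0.54 ± 0.12, adjusted p = 0.00654) and had 0.27 with PDGF-AA (adjusted p = 0.302). Eif5b, the GTPase of subunit joining, had -0.0042, 0.24, 0.31 and 0.75 at PDGF-AA 6 d and 0.21, 0.45, 0.69 and 0.13 at no factor 6 d. It rose without factor (0.37 ± 0.085, adjusted p = 0.00694), and with PDGF-AA it had 0.32, just outside the threshold (adjusted p = 0.0504), and over the 27 alternatives, of which 23 left it uncalled, 0.23 to 0.57 (adjusted p = 0.0193 to 0.457). Eif5, which triggers GTP hydrolysis on eIF2, fell without factor at 6 d (-0.31 ± 0.099, adjusted p = 0.0466) and had -0.27 with PDGF-AA (adjusted p = 0.178). Eif1ad, named for its eIF1A-like domain, had -0.26 at 6 d without factor and did not pass.

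For eIF2 and its partners, 1 of 5 genes passed. Eif2s2, the beta subunit of eIF2, fell at 6 d without factor (-0.31 ± 0.086, adjusted p = 0.0224), with -0.41, -0.43, -0.37 and -0.033 on the 4 arrays. The gamma subunit Eif2s3x had -0.0092 at PDGF-AA 6 d, -0.18 at no factor 6 d, 0.078 at PDGF-AA 12 h and 0.15 at no factor 12 h. Eif2ak4, the kinase GCN2 that senses uncharged tRNA, had 0.17 at PDGF-AA 6 d, -0.058 at no factor 6 d, -0.028 at PDGF-AA 12 h and 0.10 at no factor 12 h. Eif2a and Eif2d, which can deliver initiator tRNA by other routes, had 0.0044 and -0.19 at 6 d without factor. No subunit of the exchange factor eIF2B passed in any group (0 of 5). With PDGF-AA at 6 d Eif2b1 had 0.25, Eif2b2 -0.37, Eif2b3 0.20, Eif2b4 0.11 and Eif2b5 -0.040. Eif5a2, a paralog of the hypusine-bearing factor eIF5A, had 0.28 at PDGF-AA 6 d and 0.29 at no factor 6 d, and Eif6, which keeps the large subunit from joining too early, had -0.080 and -0.088; neither passed.

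The counts of called initiation factors depended on the arrays and the fit. At 12 h without factor the 4 calls became 0 without replicate 1 or replicate 3 of that group, 1 without its replicate 2 or 4, 2 without PDGF-AA 12 h replicate 2 or no factor 6 d replicate 3, and 1 without the dye term. Over the 27 alternatives the log2 values kept their sign, at 0.32 to 0.37 for Eif3h, 0.28 to 0.35 for Eif3f, -0.39 to -0.31 for Eif3i and -0.41 to -0.25 for Eif4a1. At 6 d without factor the 7 calls became 3 without replicate 1 or replicate 3 of that group, and 3 without the dye term. Eif3i and Eif4a2 at 6 d without factor kept their calls in all 27 alternatives.

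**Figure D3:**
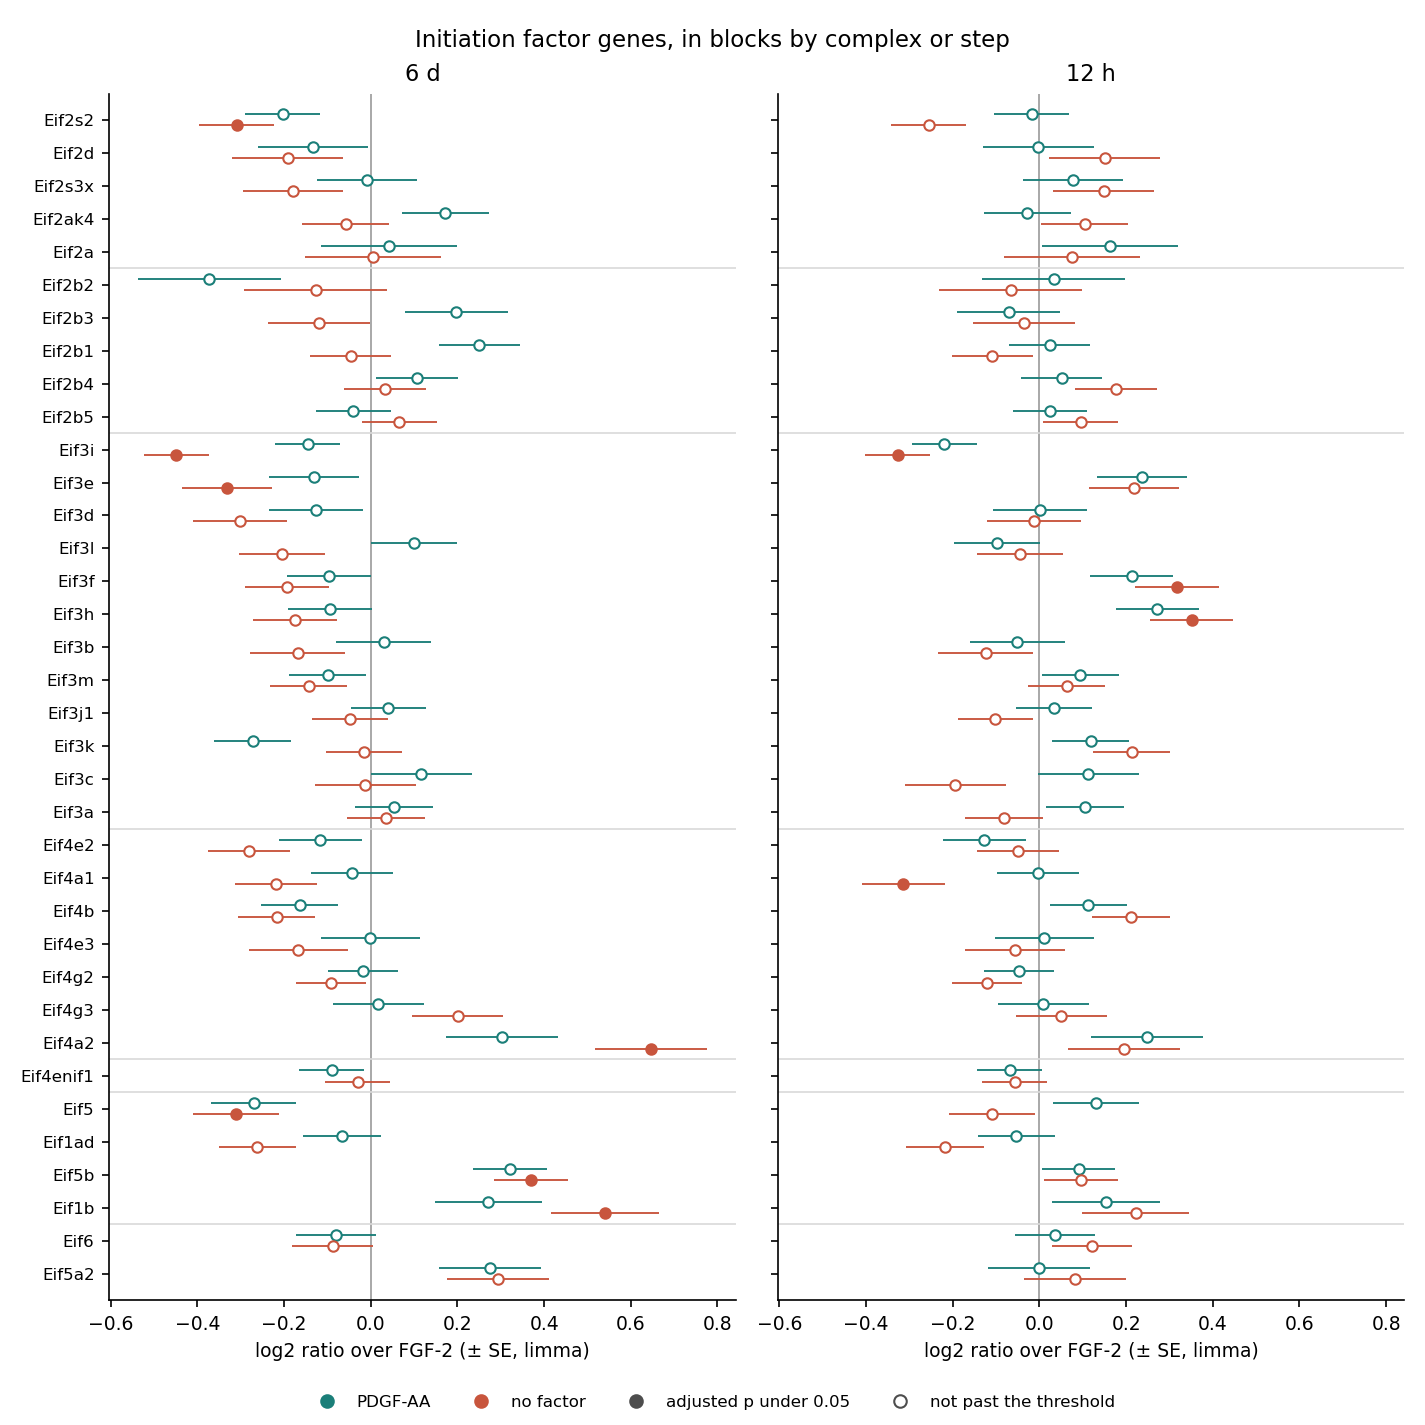
Log2 ratio over FGF-2 (± SE, limma) of the 36 initiation factor genes at 6 d (left) and 12 h (right), with PDGF-AA above no factor for each gene; grey lines part eIF2 and its partners, eIF2B, eIF3, the eIF4F group, Eif4enif1, start site and joining factors, and Eif5a2 with Eif6. The 7 filled points at 6 d lie on both sides of 0 (3 above and 4 below), as do the 4 at 12 h (2 and 2).

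PDGF-AA and no factor were compared directly through the reference. At 6 d the mean of PDGF-AA was above that of no factor in 26 of 27 ribosomal proteins and in 27 of 36 initiation factors, and at 12 h in 20 of 27 and 18 of 36. Neither the share of all units in that direction nor their median difference is given here. Genes of a family share the arrays and the reference RNA, so they are no replicates of the treatment. The array titles carry a number whose meaning the labels do not give, and 12 of the 16 arrays share 1 such number. At 6 d only 1 of the 4 PDGF-AA arrays carries it, against 3 of the 4 no factor arrays. That PDGF-AA array, replicate 4, had a ribosomal protein mean of -0.264 and a difference between the families of -0.307, and those 3 no factor arrays had ribosomal protein means of -0.358, -0.549 and -0.250. Rps27l at PDGF-AA 6 d had -0.79 in a fit of the 12 arrays alone. The part of this number in the comparison was not tested beyond these values. Not 1 member passed at either time, where 0.00796% and 0.0159% of all units did (limma). An unadjusted p under 0.05 was reached by 7 ribosomal proteins and 3 initiation factors at 6 d and by 2 and 1 at 12 h. No share of all units stands beside these unadjusted counts. At 6 d the median difference, PDGF-AA minus no factor, was 0.15 over ribosomal proteins and 0.078 over initiation factors. The largest differences at 6 d were those of Rps27l (0.48 ± 0.16, adjusted p = 0.447), Rpl21 (0.43 ± 0.18) and Rpl9 (0.42 ± 0.18). The arrays of the treatments did not overlap at 6 d for 3 of 27 ribosomal proteins (Rps20, Rpl11 and Rpl3) and 1 of 36 initiation factors (Eif3i), where 2.66% of all units did not. Rps20 and Eif3i had 0.38 ± 0.12 (adjusted p = 0.418) and 0.30 ± 0.11 (adjusted p = 0.447). So the 17 calls without factor and the 0 with PDGF-AA at 6 d are not shown to differ for any single gene.

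Between the times, 1 member passed. Without factor, Rps9 was lower at 6 d than at 12 h (-0.52 ± 0.12, adjusted p = 0.0408, limma), where 0.454% of all units were called lower, 1.42% higher and 1.87% in either direction. That call was lost without any single array of the 2 groups (adjusted p = 0.0606 to 0.162), without PDGF-AA 12 h replicate 2 (0.0586) or PDGF-AA 6 d replicate 2 (0.0516), and without the dye term (0.32). Rpl9 (-0.55 ± 0.18), Rpl24 (-0.51 ± 0.15), Eif3e (-0.55 ± 0.15), Eif3h (-0.53 ± 0.14) and Eif3f (-0.51 ± 0.14) had differences of like size and adjusted p of 0.0622 to 0.172. With PDGF-AA no member passed between 6 d and 12 h, where 1.07% of all units did. At an unadjusted p under 0.05 there were 1 ribosomal protein and 6 initiation factors, again without a share of all units beside them. The difference of these differences, the interaction of treatment and time, passed for 0 members and 0 units.

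Several spots of the chip read the same gene, which gives a check within an array. Of the 62 ribosomal protein features, 55, 59, 51 and 57 were below 0 at PDGF-AA 6 d, no factor 6 d, PDGF-AA 12 h and no factor 12 h, against 40, 46, 25 and 42 of the 70 initiation factor features. At 6 d without factor the 8 features of Rpl3 lay between -0.39 and -0.27, and the 4 of Rps3a1 between -0.52 and -0.31. Of 11 ribosomal proteins called there with several features, only Rpl4 had features on both sides of 0, from -0.57 to 0.16, and it was the only such gene among the 2 called at 12 h without factor, from -0.44 to 0.11. In the plot of features 1 of its 8 spots was above 0 in all 4 groups, and a second one at PDGF-AA 6 d. The called initiation factors with several features, 4 at 6 d and 2 at 12 h without factor, had none that disagreed in sign. Eif4enif1, not called, spread the most, from -0.69 to 0.30 over 6 features at 6 d without factor. Features of 1 gene share the sample, array and dye, so they are no replicates, and ribosomal protein cDNAs may also bind transcripts of paralogs and processed pseudogenes.

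**Figure D4:**
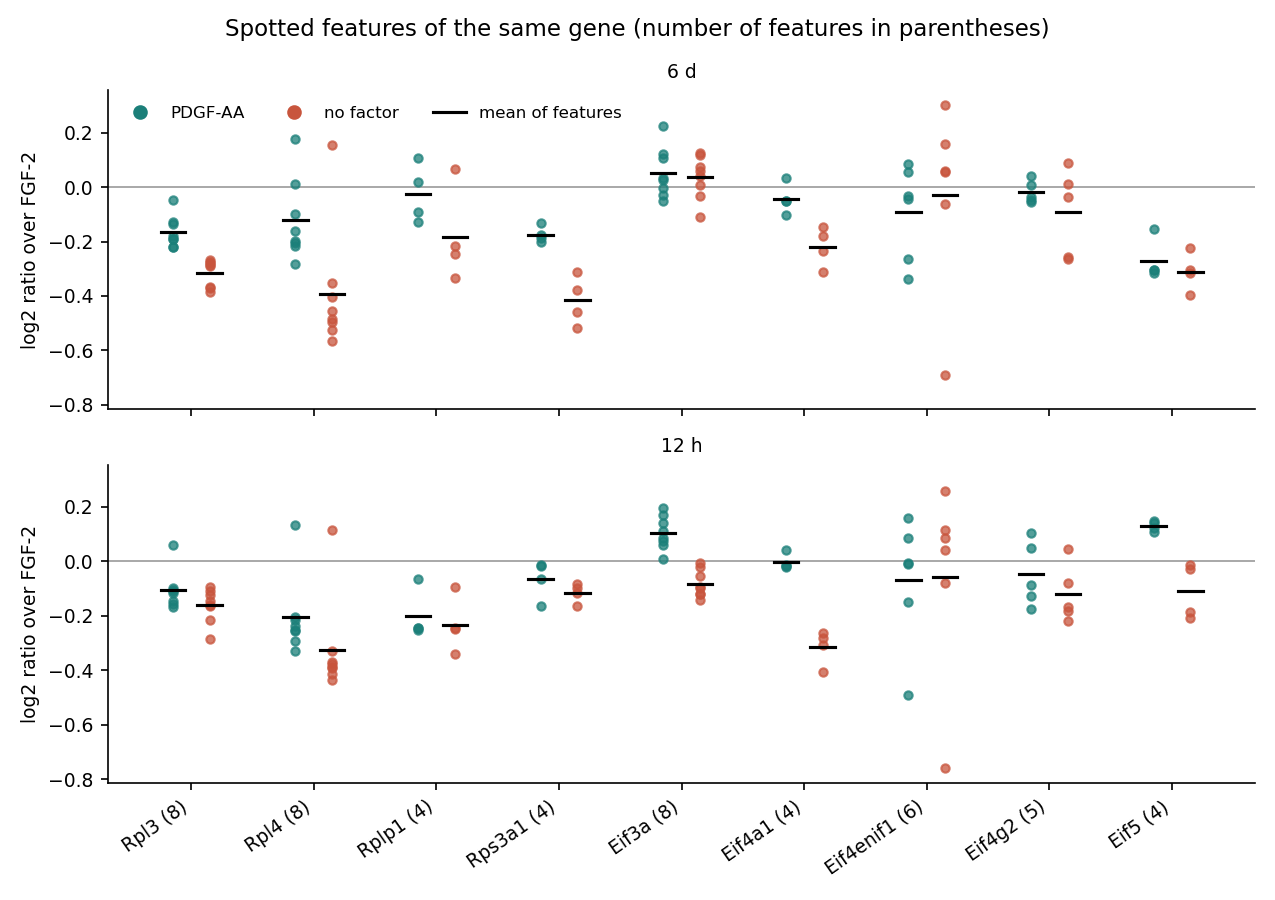
Group means of single spotted features of 9 genes with at least 4 features, as log2 ratio over FGF-2 at 6 d (top) and 12 h (bottom), PDGF-AA left of no factor; black lines are means over the features. The 8 features of Rpl3 lie together below 0 at 6 d, 1 of the 8 features of Rpl4 stands above 0 in all 4 groups and a second one at PDGF-AA 6 d, and the 6 features of Eif4enif1 spread from -0.69 to 0.30 without factor at 6 d.

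Genes outside the rule gave further ribosome readings. The annotation names 36 features by a single ribosomal protein symbol written several times (17 symbols, none of them among the 27 genes). Of these features 0, 22, 0 and 9 fell at PDGF-AA 6 d, no factor 6 d, PDGF-AA 12 h and no factor 12 h and 0 rose in any group, with medians of -0.11, -0.33, -0.13 and -0.20. In that order 1.32%, 6.73%, 2.35% and 6.48% of all units were called lower, and 1.79%, 8%, 3.44% and 8.65% of named genes. With those features named by their symbol, 27 of 44 ribosomal proteins fell at 6 d without factor and 8 of 44 at 12 h. Of 4 features with a repeated initiation factor symbol, 0, 1, 0 and 3 fell and 0 rose, with medians of -0.080, -0.30, -0.20 and -0.48. Of 29 features with a ribosomal protein symbol beside others, 0, 13, 0 and 0 fell and 0, 1, 0 and 2 rose. Their medians were -0.11, -0.24, -0.036 and -0.036. At 6 d and 12 h without factor 6.99% and 5.21% of all units were called higher. Of 46 mitochondrial ribosomal proteins, which serve the separate ribosome of that organelle, 0, 14, 0 and 4 fell and 1 rose, at 12 h without factor, and the medians were -0.083, -0.19, -0.090 and -0.082. Of 66 genes of ribosome biogenesis, 0, 9, 1 and 12 fell and 0 rose, with medians of -0.066, -0.11, -0.018 and -0.079. Among them were Nhp2, a protein of the small nucleolar particles that guide pseudouridylation (-0.77 at 6 d and -0.79 at 12 h without factor), Exosc8 of the RNA exosome (-0.61 and -0.72, and -0.53 with PDGF-AA at 12 h), Ebna1bp2 (-0.58 and -0.63), Pno1 (-0.56 at 6 d) and Nop58 of the methylation guide particles (-0.68 at 12 h).

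The lists that follow hold named genes, of which 1.79%, 8%, 3.44% and 8.65% were called lower and 2.63%, 10.2%, 1.12% and 7.87% higher at PDGF-AA 6 d, no factor 6 d, PDGF-AA 12 h and no factor 12 h. Of 10 genes of elongation and termination 2 fell at PDGF-AA 6 d, 3 at no factor 6 d, 0 at PDGF-AA 12 h and 2 at no factor 12 h, and 0 rose. Eef1b2, a subunit of the exchange factor that recharges eEF1A, fell in 3 of the groups, with -0.40 at PDGF-AA 6 d (adjusted p = 0.0244), -0.67 at no factor 6 d (adjusted p = 0.000135) and -0.46 at no factor 12 h (adjusted p = 0.0031). Its partner Eef1d fell at 6 d without factor (-0.43), the release factor Etf1 fell at 6 d and 12 h without factor (-0.53 and -0.49), and Tsfm, an elongation factor of mitochondria, fell with PDGF-AA at 6 d (-0.54). Of 9 genes that mammals regulate with the ribosomal proteins or express beside them, 1, 3, 0 and 3 fell in the order of groups above. This list shares Eef1b2 and Eef1d with the one before, and its call at PDGF-AA 6 d is Eef1b2 again. Npm1, a nucleolar chaperone, had -0.51 and -0.44 at 6 d and 12 h without factor, and Vim, an intermediate filament gene of progenitors, had -0.81 at 12 h without factor.

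Of 12 regulators of translation, 1 rose at PDGF-AA 6 d, 1 at no factor 6 d, 1 at PDGF-AA 12 h and 3 at no factor 12 h, and 0 fell. The list's medians were -0.061, -0.024, 0.073 and 0.055, with 8, 6, 5 and 4 of 12 below 0, and the calls came from 3 genes. Pdcd4, which binds and inhibits the eIF4A helicase, rose with PDGF-AA at 6 d (0.84, adjusted p = 0.0381) and without factor at 6 d (1.17, adjusted p = 0.0011) and 12 h (0.75, adjusted p = 0.0279). Pik3r1, a regulatory subunit of the PI3 kinase, rose at 12 h with PDGF-AA (0.54) and without factor (0.57), and Paip2, an inhibitor of the poly(A)-binding protein, rose at 12 h without factor (0.40). Of 14 genes of the integrated stress response, which follows phosphorylation of eIF2, 0, 3, 1 and 4 fell and 0 rose. The mitochondrial folate enzymes Mthfd2 (-1.31 at 6 d and -1.66 at 12 h without factor) and Shmt2 (-0.49 and -0.79, and -0.43 with PDGF-AA at 12 h) were among them, with the asparagine synthetase Asns (-0.63 and -0.60 without factor) and, at 12 h without factor, the chaperone Hspa5 (-0.48).

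Marker genes of the cell types such cultures can hold were called in the same groups. Astrocyte genes (9 measured) had array means of -0.174 to 0.893 at PDGF-AA 6 d, 0.517 to 1.11 at no factor 6 d, 0.0579 to 0.248 at PDGF-AA 12 h and 0.238 to 0.480 at no factor 12 h, with 3, 7, 0 and 3 genes called higher and 1, 1, 0 and 1 lower. Oligodendrocyte lineage genes (3 measured) had means of 0.773 to 2.27, 0.701 to 2.29, 0.0936 to 0.550 and 0.203 to 0.934, with 2, 3, 0 and 1 higher. Neuronal genes (6) had 0, 2, 1 and 2 called higher and 0, 0, 0 and 1 lower, mesenchymal genes (8) had 3, 5, 0 and 1 higher and 1, 1, 0 and 0 lower, and progenitor genes (6) had 1, 2, 1 and 1 higher and 2, 2, 1 and 2 lower. Microglial (5) and endothelial (4) genes had 0 calls in all groups, with array means between -0.433 and 0.433. The array with the lowest ribosomal protein mean of its group had the sample in Cy3 in all 4 groups. At 6 d it also had the lowest replication and the highest astrocyte mean of its group, on PDGF-AA replicate 4 (-0.264, -1.17 and 0.893) and on no factor replicate 3 (-0.549, -1.28 and 1.11). At 12 h it did not: the lowest ribosomal protein mean was on PDGF-AA replicate 3 and no factor replicate 4, the lowest replication mean on PDGF-AA replicate 2 and no factor replicate 1, and the highest astrocyte mean on replicate 2 of both. The part of cell makeup and of proliferation in the ribosomal protein values was not tested.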

How the data were processed

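Ratios of sample over reference RNA were used from 16 arrays (4 groups of 4). The authors deposited values taken here as log2 ratios, with medians per array of -0.0053 to 0.0387; per the labels, chips were scanned and spot intensities measured with QuantArray, and how they were normalised was not given in the sources used here. Neither log base nor direction is stated with the deposited values; base 2 was assumed, and sample over FGF-2 reference was read from the values of replication genes. All 16 columns were used and 0 left out. Precision is limited by the number of arrays, and spot intensities are not used here. The labels pair no arrays and do not say which share an RNA preparation.

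From these values, array medians were set to 0, features of 1 symbol averaged, and genes with values on at least 3 arrays in each group kept (12559 units of 15151 features; 1 feature lacked values on 4 arrays). limma 3.58.1 in R 4.3.3 was fitted on all 16 arrays with 4 groups and a dye term (0.5 for the sample in Cy5, -0.5 in Cy3), each group against 0 and the groups against each other, with Benjamini-Hochberg adjustment over all units and a threshold of 0.05. The script was tested on simulated data with this design and changes put into no factor 6 d. There it called 7 of 50 changes of 0.3 log2 and 38 of 50 of 0.6. The simulation drew on the spread of all units and gave 149 calls, against 1723 in the data for no factor 6 d. Both families had less spread than all units, so these rates do not carry over to the members. A gene that did not pass can still have changed by such amounts. Members and lists were chosen with earlier results of these data known. Members named were those called, up to 15 per family, comparison and direction, the 3 largest per family and comparison, the paralogs and the factors by complex, and up to 4 called genes of each other list and comparison. Alternatives left out the dye term, the centring or 1 array, scaled the arrays, fitted only the groups compared, used the number in the array titles (202 on 12 arrays, meaning not stated) as a term or a filter, took the median or 1 feature per symbol, moved the filter on missing values, or used robust eBayes. Naming repeated symbols, using arrays of 1 dye and leaving out paralogs were chosen after seeing the data. Promoter windows came from RefSeq (GRCr8), matched by symbol for 54 of 63 genes.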

Additional observations from a re-analysis of the deposited data

Results flagged for a closer look

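In 10 of 264 groups of 4 arrays, 1 array lay far from the other 3 by Dixon's criterion, which chance alone meets in about 1 of 20 groups. On PDGF-AA 6 d replicate 4 these were Eif1b (1.04, the others at -0.074 to 0.073), Eif2a (0.68, the others at -0.23 to -0.10), Eif3h (0.33, the others at -0.28 to -0.18) and Rpl11 (-0.15, the others at -0.25 to -0.24). Replicate 4 was also the array of that group with the lowest replication mean and the highest astrocyte mean. On PDGF-AA 6 d replicate 2, Eif3l had 0.72, the others -0.16 to -0.065. At no factor 6 d, Eif2a had 0.25 on replicate 3, the others -0.085 to -0.073, and Eif2s2 had -0.033 on replicate 4, the others -0.43 to -0.37. At PDGF-AA 12 h, Eif3f had 0.41 on replicate 2, the others 0.13 to 0.15, and Eif4b had -0.15 on replicate 1, the others 0.16 to 0.23. At no factor 12 h, Eif2s2 had -0.051 on replicate 3, the others -0.34 to -0.30.

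Rps9 was lower at 6 d than at 12 h without factor (-0.52, adjusted p = 0.0408, limma), the only member past the threshold between groups. In 4 further cases, out of 63 genes in 4 pairs of groups, every array of one group lay above 0 and every array of the other below it. The share of all units with this pattern was not counted, so these cases show no excess. Rpl7l1 had 0.061 at PDGF-AA 12 h and -0.13 at no factor 12 h, a difference of 0.19 (adjusted p = 0.926, limma). Between no factor 6 d and no factor 12 h, Eif2s3x had -0.18 and 0.15, a difference of -0.33 (adjusted p = 0.489), Eif3e -0.33 and 0.22, a difference of -0.55 (adjusted p = 0.0709), and Eif3h -0.18 and 0.35, a difference of -0.53 (adjusted p = 0.0622). None of these 4 passed the threshold.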

How the results depend on the processing

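No paired analysis was possible because the labels carry no replicate numbers. Of 32 gene calls examined, 9 held in all 27 alternatives (Rps27l, Rps20, Rps9, Rpl4, Rpl11, Rpl15, Eif3i and Eif4a2 at 6 d and Rps27l at 12 h, all without factor), 23 were lost in some, and 0 of 46 gene results reversed. Rpl37 was lost in 23 alternatives and Eif5 in 17. Leaving out 1 array gave 11 to 17 ribosomal proteins at no factor 6 d, 2 to 4 at no factor 12 h, 0 to 1 at PDGF-AA 6 d and 0 to 1 for 6 d over 12 h without factor. It gave 3 to 8 initiation factors at no factor 6 d, 0 to 5 at no factor 12 h, 0 to 1 at PDGF-AA 6 d and 0 to 2 for 6 d over 12 h without factor. The counts of both families at PDGF-AA 12 h, between PDGF-AA and no factor at either time, between times with PDGF-AA and for the interaction were 0 to 0.

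Without the dye term the counts were 8 and 1 ribosomal proteins at no factor 6 d and 12 h, 3 and 1 initiation factors there, and 0 ribosomal proteins between the times without factor. With arrays scaled to a common spread, 3 ribosomal proteins and 2 initiation factors were called at PDGF-AA 6 d, 2 initiation factors at no factor 12 h and 0 ribosomal proteins between the times. Fits of only the groups compared gave 10 ribosomal proteins and 3 initiation factors at no factor 6 d, 2 initiation factors at no factor 12 h and 0 ribosomal proteins between the times. With only the 12 arrays that share 1 number in their titles, 4 initiation factors were called at no factor 6 d. Between the times this fit called 1 initiation factor and 0 ribosomal proteins, and the title number as a term also gave 0 ribosomal proteins there. The fit of the 12 arrays leaves 1 array at PDGF-AA 6 d, so no count is given for that group. Without centring, 1 initiation factor was called at PDGF-AA 6 d. With repeated symbols named, 27 and 8 of 44 ribosomal proteins were called at no factor 6 d and 12 h, and 1 of 38 initiation factors at PDGF-AA 6 d.

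The ribosomal protein mean minus the initiation factor mean stayed below 0 whichever array was left out, at -0.180 to -0.0863 for PDGF-AA 6 d, -0.323 to -0.200 for no factor 6 d, -0.197 to -0.0651 for PDGF-AA 12 h and -0.272 to -0.1197 for no factor 12 h. On arrays with the sample in Cy5 alone it reversed at PDGF-AA 12 h (0.0242) and no factor 12 h (0.00101), and on the single PDGF-AA 6 d array with that title number it was -0.307. Apart from the changes that follow from fewer arrays, the cause was not tested.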
